A study of Homo sapiens with 6 samples.

Results

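The circular RNAs described here come from host genes of the cell cycle, of cohesin and condensin, and of DNA replication. A circular RNA (circRNA, or circle) is a closed transcript in which the end of an exon is spliced back to the start of the same or an upstream exon, and reads across that back-splice junction give its count. Members were chosen by gene name alone, as circRNAs with a single host gene whose symbol is CENP, NCAP or CCN with a letter, MCM, ORC, CDC, CDK, STAG, RFC, SKA or ANAPC with a number, or one of a short list (SMC1A, SMC2, SMC4, POLA1, POLE, POLE2, NIPBL, ESCO1, KNTC1, BUB1, BUB1B and ASPM among them). The rule found 194 circRNAs from 69 host genes, of 9857 circRNAs and 3742 host genes in all. It took no measured value into account. It also takes in genes whose name matches but whose best known role lies elsewhere, such as CDC42BPA and CDC42BPB (kinases that act downstream of CDC42), CDC40 and CDC5L (splicing), CDC73 (transcription elongation), CDK12, CDK13 and CCNT2 (transcription kinases and their cyclin), and MCM3AP (export of messenger RNA).

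The cells were BEAS-2B, a line of immortalised epithelial cells from human bronchus. The cadmium group was kept in 2.0 µM cadmium for 20 weeks (3 libraries) and the control group at 0.0 µM for the same time (3 libraries). Both groups are the same line, and no label states that replicate libraries were grown as separate cultures. The p-values therefore rest on the spread between libraries, which may be technical in origin. All RNA was cleared of ribosomal RNA and digested with RNase R, which degrades linear RNA, so a circle's level is relative to other circles and not to the messenger RNA of its gene. In bulk RNA, fewer cells that make a circle and less of it per cell cannot be told apart.

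Cyclins bind and switch on cyclin-dependent kinases (CDKs), and successive cyclin and CDK pairs drive a cell into DNA synthesis and then into mitosis. The origin recognition complex (ORC) loads the MCM helicase onto DNA before replication starts, and RFC and the DNA polymerases carry out synthesis. Cohesin, a ring of SMC proteins with a STAG subunit, is loaded by NIPBL and holds sister chromatids together after acetylation by ESCO1, whereas condensin compacts chromosomes for mitosis. Kinetochores built on centromeres (CENP proteins, SKA3, KNTC1) attach chromosomes to the spindle, BUB1 and BUB1B delay division until all are attached, and the anaphase promoting complex (CDC27, CDC23, CDC16, ANAPC7) then marks cyclin B1 and the cohesin guard securin for destruction.

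The junction sequences below belong to the circles on which the results turn. They are the most abundant member, CCNB1 exons 6 to 7, the single-exon circle of SKA3 with 2 circles that share a splice site with a relative, 3 STAG1 circles that start at the same exon, and 2 CDC25C circles that end at the same exon. Each is written 5′ to 3′ as RNA-sense DNA letters, with the last 25 bases of the circle's final exon in lower case followed by the first 25 bases of its first exon in capitals, so the join itself lies between the cases. Sequences were read from GENCODE 29 transcripts (GRCh38), and all shown bases are coding.
CCNB1 hsa_circ_0001495: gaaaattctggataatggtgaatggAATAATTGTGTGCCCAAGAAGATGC
SKA3 hsa_circ_0000467: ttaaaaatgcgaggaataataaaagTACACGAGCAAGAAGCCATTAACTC
SKA3 novel_circ_0006271: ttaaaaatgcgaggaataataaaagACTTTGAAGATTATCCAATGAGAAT
SKA3 hsa_circ_0007547: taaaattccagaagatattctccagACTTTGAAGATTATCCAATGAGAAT
STAG1 hsa_circ_0005023: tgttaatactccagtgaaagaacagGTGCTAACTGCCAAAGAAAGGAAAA
STAG1 hsa_circ_0067474: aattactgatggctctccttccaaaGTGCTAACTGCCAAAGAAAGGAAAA
STAG1 novel_circ_0026126: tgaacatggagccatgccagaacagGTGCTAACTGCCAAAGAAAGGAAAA
CDC25C hsa_circ_0005537: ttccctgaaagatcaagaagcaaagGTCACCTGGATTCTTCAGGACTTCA
CDC25C novel_circ_0030632: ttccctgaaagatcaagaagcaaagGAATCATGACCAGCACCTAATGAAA

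The CCNB1 circle lies at chr5:69174877-69175537 (plus strand, exons 6 to 7 of 9). The SKA3 circles lie on the minus strand at chr13:21167988-21168399 (exon 4 of 9), chr13:21167988-21172681 (exons 2 to 4) and chr13:21157922-21172681 (exons 2 to 7). The circles of exon 4 and of exons 2 to 4 share the lower-case letters, because both end at exon 4, and the circles of exons 2 to 4 and 2 to 7 share the capitals, because both start at exon 2. The STAG1 circles lie on the minus strand at chr3:136377660-136423044 (exons 17 to 23 of 34), chr3:136398749-136423044 (exons 17 to 22) and chr3:136417885-136423044 (exons 17 to 21). They have the same capitals and differ in the exon whose end is joined to exon 17. The CDC25C circles lie on the minus strand at chr5:138319219-138328529 (exons 4 to 7 of 14) and chr5:138319219-138326054 (exons 5 to 7), with the same lower-case letters and a different first exon.

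Library totals ran from 133185 to 225769 junction reads. The weighted share of junction reads is the percentage that doubled junction reads make of doubled junction reads plus the reads of the same locus that do not cross the junction. Over 133 member circles with all values it was 58.2% and 60.9% in control replicates 1 and 3, and 35.5%, 43.9%, 42.4% and 40.9% in control replicate 2 and cadmium replicates 1 to 3. Over all 6090 circles with all values the same 2 control libraries stood apart, at 46.1% and 48.9% against 29.2% to 31.7%. Counts of members, and the hosts and circles named by rule whose fold change these 2 libraries move across 0 or by over 1.5 times, are also given without them, here or in the closing section. Of 59 member hosts with a share in every library, 37 had control replicates 1 and 3 above the other 4 libraries. The share also differed between hosts. It was 92.9% to 98.4% across the libraries for CDK7, the kinase that activates other CDKs, and 4.51% to 19.9% for the condensin subunit NCAPD2. STAG1 circles had shares of 17.3% to 37.8% and the main SKA3 and CCNB1 circles with their relatives 65.0% to 88.7% and 69.6% to 87.0%.

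Members took up 3955, 2520 and 2962 junction reads in the 3 control libraries and 2505, 2538 and 2992 in the 3 cadmium libraries (each in order of replicate number, as in all sentences below). Their share of each library's reads was 1.75%, 1.83% and 1.79% in the controls and 1.88%, 1.87% and 1.87% with cadmium. Every cadmium library was above every control library, but the groups' means, 1.79% ± 0.0377 and 1.87% ± 0.00716 (SD, n = 3), differed by only 0.0827 percentage points. Without CCNB1 the difference was 0.0417 points, and without control replicates 1 and 3 it was 0.0457 points. The number of member circles above 0 was 187, 181 and 182 in the controls and 174, 168 and 173 with cadmium. After all libraries were thinned to 133185 reads, the controls still held 178, 181 and 182. Among all circles, the controls held 8973 to 9449 above 0 and the cadmium libraries 8662 to 8844. The difference in mean number, cadmium minus control, was -11.7 member circles, and -9.33 without control replicates 1 and 3.

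Of the 194 member circles, 190 were exonic and 4 intronic. Among the exonic ones, 180 had both ends on exon bounds of a transcript of their host. These held a median of 3 exons, as did the rest of the circles with a single host. Only 3 were a single exon (1.67%, against 3.38% of the rest), from SKA3, CDK13 and CDK14. Exon 2 was the first exon of 36 members (20%, against 27.8% of the rest), and 155 lay wholly in coding sequence (86.1%, against 83.5%). The median deposited spliced length was 377.5 bases for members and 381.0 for the rest. A single circle came from 21 of 69 member hosts (30.4%) and from 46.0% of the other hosts, a difference that was not tested. The kinetochore gene KNTC1 gave 17 circles and STAG1 gave 12. Of 173 members from hosts with more than 1 circle, 120 shared a splice site with another circle of their host (69.4%, against 72.9% of the rest). Circles with a catalogue name (hsa_circ) made up 61.9% of members and 68.5% of the rest.

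The inner exons of newly named circles are less sure than their ends. The deposited spliced length equalled the summed length of all exons between the ends for 110 of 114 member circles with a catalogue name, but for 34 of 66 with a new name. For the rest of the circles these counts were 5858 of 6121 and 1159 of 2393. The SKA3 circle of exons 2 to 4 has a deposited length of 228 bases where its 3 exons sum to 640, and the STAG1 circle of exons 17 to 21 has 252 where they sum to 546. The junctions printed above use only the outer exons.

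A few hosts carried most member reads. Of 17472 member reads over the 6 libraries, CCNB1 took 15.4%, the top 5 hosts 35.4% and the top 10 hosts 50.3%. A circle has 1 junction whatever its length, so CPM (junction reads scaled to a common library total, with TMM factors) can be set side by side between circles without a length term, whereas a host's level sums its junctions. The circle of exons 6 to 7 of CCNB1, the cyclin that drives entry into mitosis, ranked 19 among all circles by mean CPM. It had 571, 303 and 453 reads in the controls and 358, 372 and 515 with cadmium, and the groups overlapped at 2497 ± 270 and 2876 ± 356 CPM (SD, n = 3). It held 95.6% of CCNB1 reads. The next, SKA3 exon 4, ranked 117. The median member circle had 7 reads in a library, and 65 members had fewer than 10 in every library, so most single circles could show only large differences.

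**Figure D1:**
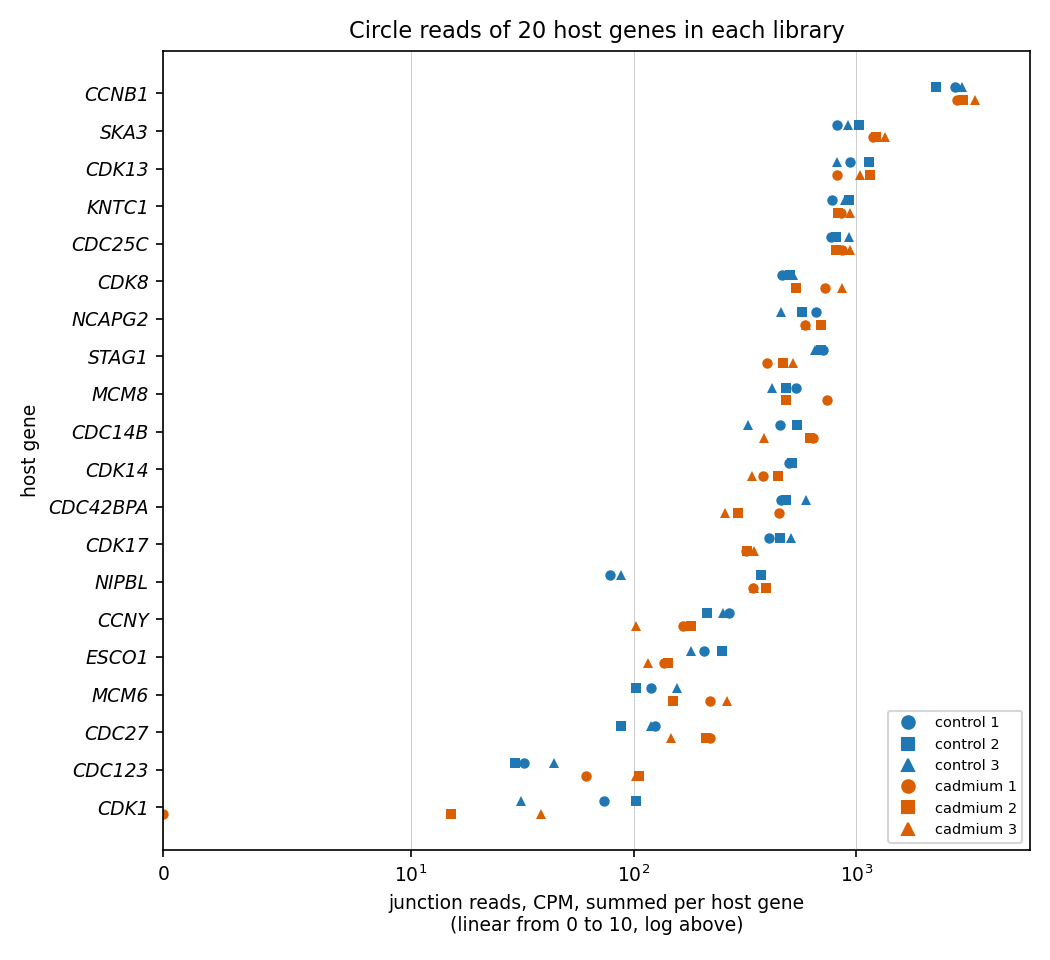
Junction reads in CPM (horizontal axis, linear to 10 and log above) summed per host gene, with 1 point per library, for the 20 host genes named by rule (12 with the highest mean, and 6 higher and 6 lower with the smallest p, with overlaps counted once). Control points (blue) lie right of cadmium points (orange) for STAG1, left of them for SKA3, and NIPBL has control replicates 1 and 3 far to the left of the other 4 libraries.

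With cadmium, no member host passed the test. In edgeR's quasi-likelihood fit over all 3008 host genes with enough reads, 63 of 69 member hosts were tested and 0 had a Benjamini-Hochberg adjusted p under 0.05, where 0.233% of all tested hosts did. DESeq2 and limma on log2(TPM + 1) also called 0 members. At an unadjusted p under 0.05, edgeR had 10 of 63 members lower (15.9%) against 6.58% of all tested hosts, and 5 higher (7.94%) against 5.88%. DESeq2 had 3 lower and 3 higher at that level, with no share over all hosts to set beside these counts. The 3 libraries of the groups did not overlap for 11 members that were lower (17.5%, against 10.0% of all hosts) and 4 that were higher (6.35%, against 9.28%). The shares of higher members are close to those of all hosts. The lower shares are above the background, and that difference was not tested. Without control replicates 1 and 3, which leaves 1 control library, 4 of 64 tested members were lower and 2 higher at an unadjusted p under 0.05, where 2.69% of all hosts in that fit were lower and 5.16% higher. The median log2 fold change over the 63 members was 0.13 (36 above 0 and 27 below), beside 0.001 over all hosts (1505 above and 1503 below). The 6 members not tested were ASPM, CDK16, CENPF, ORC3, POLE and POLE2.

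**Figure D2:**
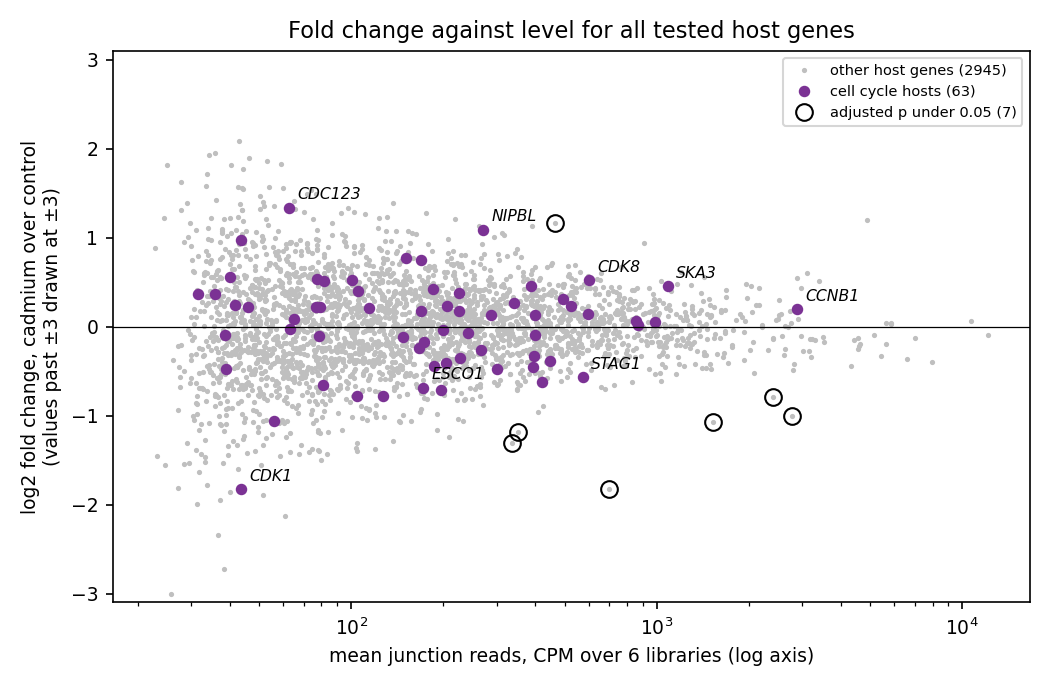
Log2 fold change, cadmium over control (vertical axis), against mean CPM on a log axis for 3008 tested host genes, with the 63 members in purple and the 7 hosts with an adjusted p under 0.05 ringed. The members lie within the cloud of other hosts, and none is ringed.

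Cohesin hosts included the member with the lowest p-value, STAG1. STAG1 encodes a core subunit of the ring and had 154, 95 and 104 reads over its 12 circles in the controls and 52, 62 and 81 with cadmium. On the CPM scale these were 710.1, 696 and 652 against 395.6, 467.3 and 519.6, so every cadmium library lay below every control library. The group means were 686 ± 30.3 and 460.8 ± 62.3 CPM (SD, n = 3). The log2 fold change was -0.57 (SE 0.16), with an edgeR adjusted p of 0.204, which does not pass. It stayed below 0 in all 14 alternatives, from -0.67 to -0.49, and was -0.61 without control replicates 1 and 3. ESCO1, the acetyltransferase that makes cohesion lasting, had 45, 34 and 29 reads in the controls and 18, 19 and 18 with cadmium. Its groups did not overlap either, with 212.8 ± 34.0 and 131.9 ± 14.5 CPM (SD, n = 3), a log2 fold change of -0.69 (SE 0.27) and an edgeR adjusted p of 0.323. STAG2, the alternative to STAG1 in the ring, had a log2 fold change of -0.11 (SE 0.40), and SMC1A, an arm of the ring, 0.17 (SE 0.27). Neither can be told from no difference at this depth.

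The 12 STAG1 circles lie in 4 stretches of the gene. A circle of exons 2 to 4 stands alone, 7 circles start at exon 8 or 10, 3 start at exon 17, and 1 holds exons 26 to 28. By share of library reads, 11 of 12 were lower with cadmium on average. Some are listed only because they are above 0 in every control library, such as the circle of exons 17 to 21. For these a lower cadmium share was in part built in, and their reads are in the host sum too. The 12 circles come from the same libraries and are not replicates. In the fit over all circles, 7 were tested and 6 had a log2 fold change below 0. The circle of exons 17 to 23, hsa_circ_0005023, had the smallest p of them, with 22, 5 and 7 reads in the controls and 3, 3 and 4 with cadmium. The log2 fold change of this circle was -1.38 (SE 0.59), with an edgeR adjusted p of 0.557. The groups did not overlap. Control replicate 1 held more of its reads than any other library, and without it the log2 fold change was -0.74. Next to it, the circle of exons 17 to 22, whose junction shares exon 17, had 14, 12 and 20 reads against 11, 7 and 5 and a log2 fold change of -0.71 (SE 0.45). For the circle of exons 17 to 21, reads were too few for a test, with 14, 5 and 5 against 3, 0 and 0. Further upstream, the circle of exons 2 to 4 had 18, 16 and 21 reads against 8, 11 and 26, and its log2 fold change was -0.04 (SE 0.41). The only tested STAG1 circle above 0, hsa_circ_0067479 of exons 10 to 15, was at 0.09 (SE 0.54).

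**Figure D3:**
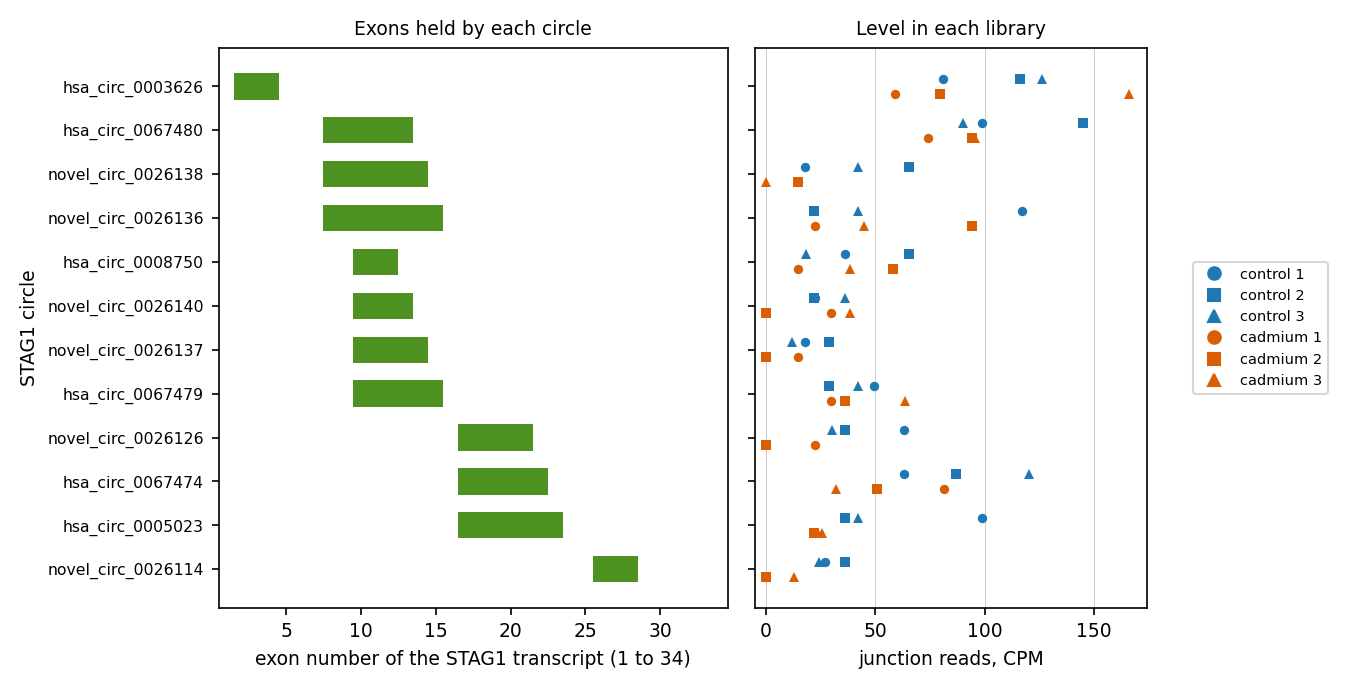
Left, the exons of the 34-exon STAG1 transcript from first to last held by each of its 12 circles, and right, CPM in each library. Of the 3 circles that start at exon 17, 2 have every cadmium point left of every control point, while the circle of exons 2 to 4 has a cadmium library on either side of the controls.

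NIPBL, which loads cohesin onto chromosomes, differed among the control libraries. Its circles had 17, 51 and 14 reads in the controls and 45, 52 and 54 with cadmium. Control replicate 2, at 373.6 CPM, lay among the cadmium libraries (342.3, 391.9 and 346.4), and control replicates 1 and 3 were far lower at 78.4 and 87.8. These are the 2 libraries with the high weighted share of junction reads, and the part of that in the NIPBL values was not tested. The log2 fold change was 1.09 (SE 0.51), with an edgeR adjusted p of 0.432. It became -0.08 without control replicates 1 and 3. Without control replicate 2 it was 2.11, the only fit in which a member host was called (edgeR adjusted p of 0.00216). An intronic circle, novel_circ_0031623, had 0, 10 and 3 reads in the controls and 19, 16 and 30 with cadmium. Control replicate 2 was its highest control library as well, but here it lay below every cadmium library, so the groups did not overlap. This circle is listed only because it is above 0 in every cadmium library. A higher cadmium level was therefore in part built in, and its reads are in the NIPBL sum too. The circle spans chr5:36982165-36986301 with a deposited length of 58 bases. Its log2 fold change was 2.49 (SE 0.70), the largest of any tested member circle above 0, with an edgeR adjusted p of 0.421. It was 1.03 without control replicates 1 and 3 and 4.09 without control replicate 2, where it was called (edgeR adjusted p of 0.0367). The exonic circle of exons 2 to 9, hsa_circ_0001472, had 10, 37 and 7 reads against 22, 33 and 22.

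**Figure D4:**
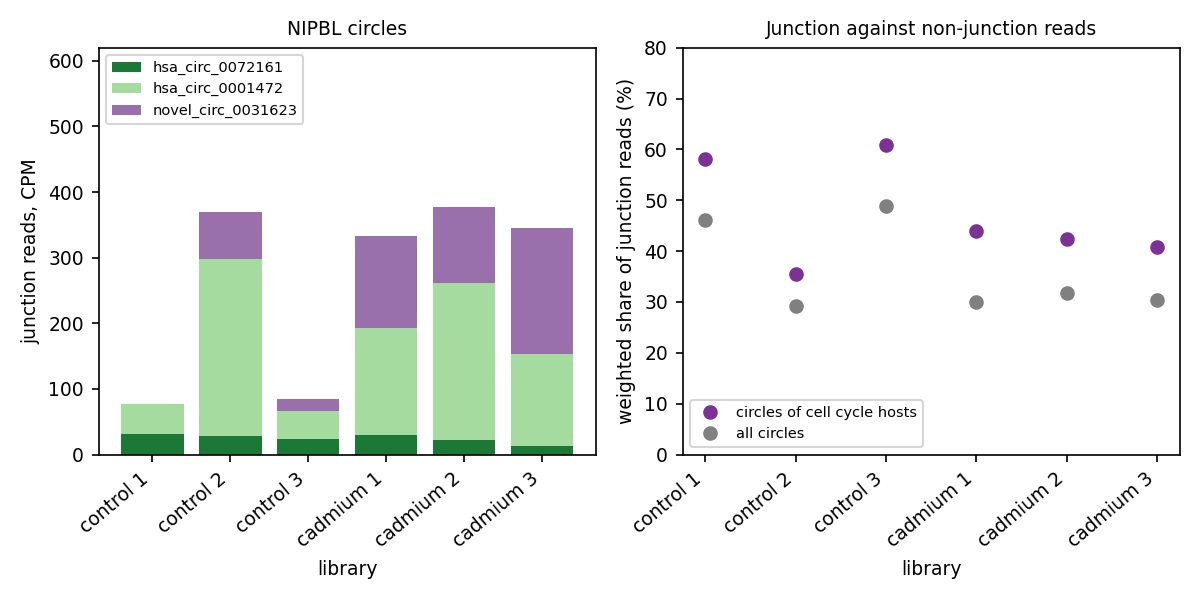
Left, stacked CPM of the 3 NIPBL circles in each library, and right, the weighted share of junction reads in percent for member circles (purple) and all circles (grey). Control replicates 1 and 3 have the lowest NIPBL bars and the highest shares.

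Kinetochore and checkpoint hosts went both ways, with 6 of 9 tested above 0 and 3 below and a median log2 fold change of 0.08. SKA3, part of the complex that keeps kinetochores on spindle microtubules, had 178, 140 and 146 reads in the controls and 156, 163 and 210 with cadmium. On the CPM scale these were 820.8, 1026 and 915.3 against 1187, 1228 and 1347, with every cadmium library above every control library. The group means were 920.6 ± 102 and 1254 ± 83.2 CPM (SD, n = 3). The log2 fold change was 0.45 (SE 0.14), with an edgeR adjusted p of 0.209, which does not pass, and 0.27 without control replicates 1 and 3. The single-exon circle hsa_circ_0000467 held 86.1% of SKA3 reads, with 158, 115 and 134 against 127, 127 and 194 reads. Its log2 fold change was 0.40 (SE 0.17), with groups that did not overlap and an edgeR adjusted p of 0.534. The circle of exons 2 to 4, which ends at the same exon, had 14, 14 and 3 reads against 7, 11 and 5 and a log2 fold change of -0.14 (SE 0.57). SKA3 exons 2 to 7 had 6, 5 and 0 reads against 7, 17 and 2, and exons 7 to 8 (novel_circ_0006266) had 0, 6 and 9 against 15, 8 and 9. Both of these circles are listed only because they are above 0 in every cadmium library. For them a higher cadmium level was in part built in, and their reads are in the SKA3 sum too.

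BUB1B, a checkpoint protein that holds back anaphase, was lower in every cadmium library. It had 26, 18 and 23 reads in the controls and 8, 13 and 11 with cadmium. Its circle hsa_circ_0034565 had 9, 3 and 5 reads against 0, 0 and 3. For novel_circ_0008311 these were 2, 2 and 2 against 0, 0 and 2. Both are listed only because they are above 0 in every control library. Conversely, hsa_circ_0008946 (0, 5 and 6 against 4, 6 and 3) is listed only through the cadmium libraries. The lower BUB1B sum can therefore be in part built in. The log2 fold change of BUB1B was -0.78 (SE 0.34), with an edgeR adjusted p of 0.366. Its partner BUB1 was level, at -0.03 (SE 0.29). KNTC1, which brings dynein to kinetochores, had 168, 126 and 142 reads over its 17 circles against 112, 110 and 146. Its log2 fold change was 0.02 (SE 0.14), and 4 of its 8 tested circles lay above 0. Within KNTC1, novel_circ_0004539 of exons 35 to 36 had 7, 8 and 6 reads against 9, 9 and 17, a log2 fold change of 0.98 (SE 0.45). Among the centromere proteins, CENPI was at 0.46 (SE 0.25) and CENPK at -0.33 (SE 0.20), each with overlapping groups.

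The 4 hosts from the anaphase promoting complex all had a log2 fold change above 0, with a median of 0.65. Their summed level was 230.6, 234.4 and 288.4 CPM in the controls and 403.2, 376.8 and 404.1 CPM with cadmium. CDC27 had the highest level, through 1 circle of exons 3 to 4, hsa_circ_0044234, with 27, 12 and 19 reads against 29, 28 and 23. The log2 fold change of CDC27 was 0.77 (SE 0.30), with groups that did not overlap on the CPM scale and an edgeR adjusted p of 0.311. CDC23 was at 0.97 (SE 0.65), ANAPC7 at 0.52 (SE 0.41) and CDC16 at 0.22 (SE 0.52). Their groups overlapped, and no library of these 3 hosts held more than 17 reads.

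Among the cyclins, 5 of 7 were above 0, and those with groups that did not overlap were the 2 below. CCNB1 had 603, 312 and 474 reads in the controls and 370, 398 and 532 with cadmium. Its log2 fold change was 0.20 (SE 0.13), with overlapping groups and an edgeR adjusted p of 0.554, and it was 0.41 without control replicates 1 and 3. CCNY, a cyclin tied to the cell membrane that partners CDK14, had 58, 29 and 40 reads against 22, 24 and 16. CCNY had a log2 fold change of -0.72 (SE 0.27) and an edgeR adjusted p of 0.306. CCNL2, a cyclin linked to splicing, had 71, 49 and 58 reads against 38, 33 and 34, all from a single circle. For CCNL2 the log2 fold change was -0.47 (SE 0.21), with an edgeR adjusted p of 0.366. CCNE2, which acts at the start of DNA synthesis, had 14, 0 and 7 reads against 8, 9 and 2, a log2 fold change of 0.24 (SE 0.80).

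Of 9 tested CDK hosts, 6 were below 0, with a median log2 fold change of -0.35. CDK14, the partner of CCNY, had 108, 70 and 82 reads in the controls and 50, 59 and 53 with cadmium. Its groups did not overlap, at 508.3 ± 8.95 and 388.3 ± 52.8 CPM (SD, n = 3), with a log2 fold change of -0.39 (SE 0.18) and an edgeR adjusted p of 0.382. Its circle of exons 3 to 4, hsa_circ_0004015, had 34, 23 and 24 reads against 11, 11 and 15, a log2 fold change of -0.84 (SE 0.31). CDK17, a relative of CDK14, had 88, 62 and 81 reads against 42, 43 and 54, a log2 fold change of -0.46 (SE 0.19). CDK19 was lower in every cadmium library as well, at -0.35 (SE 0.23). CDK8, its close relative in the Mediator kinase module, was higher in every cadmium library, with 100, 69 and 83 reads against 95, 71 and 134. Its log2 fold change was 0.52 (SE 0.18). The gap was narrow, with cadmium replicate 2 at 535.1 CPM and control replicate 3 at 520.4 CPM. The circle hsa_circ_0029803 held 62.3% of CDK8 reads, and its groups overlapped at a log2 fold change of 0.44 (SE 0.28). No test set CDK8 against CDK19. CDK1, the kinase partner of cyclin B1, had 16, 14 and 5 reads against 0, 2 and 6. CDK1 has a single circle, listed only because it is above 0 in every control library. For CDK1 a lower cadmium level was therefore in part built in. Its log2 fold change of -1.83 (SE 0.76) was the lowest of the 63 tested member hosts, and the groups overlapped. Cadmium replicate 3 held 6 of its reads in that group, and without this library the value was -3.05. CDK13, which had the most circle reads of any CDK, was level at 0.05 (SE 0.17).

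**Figure D5:**
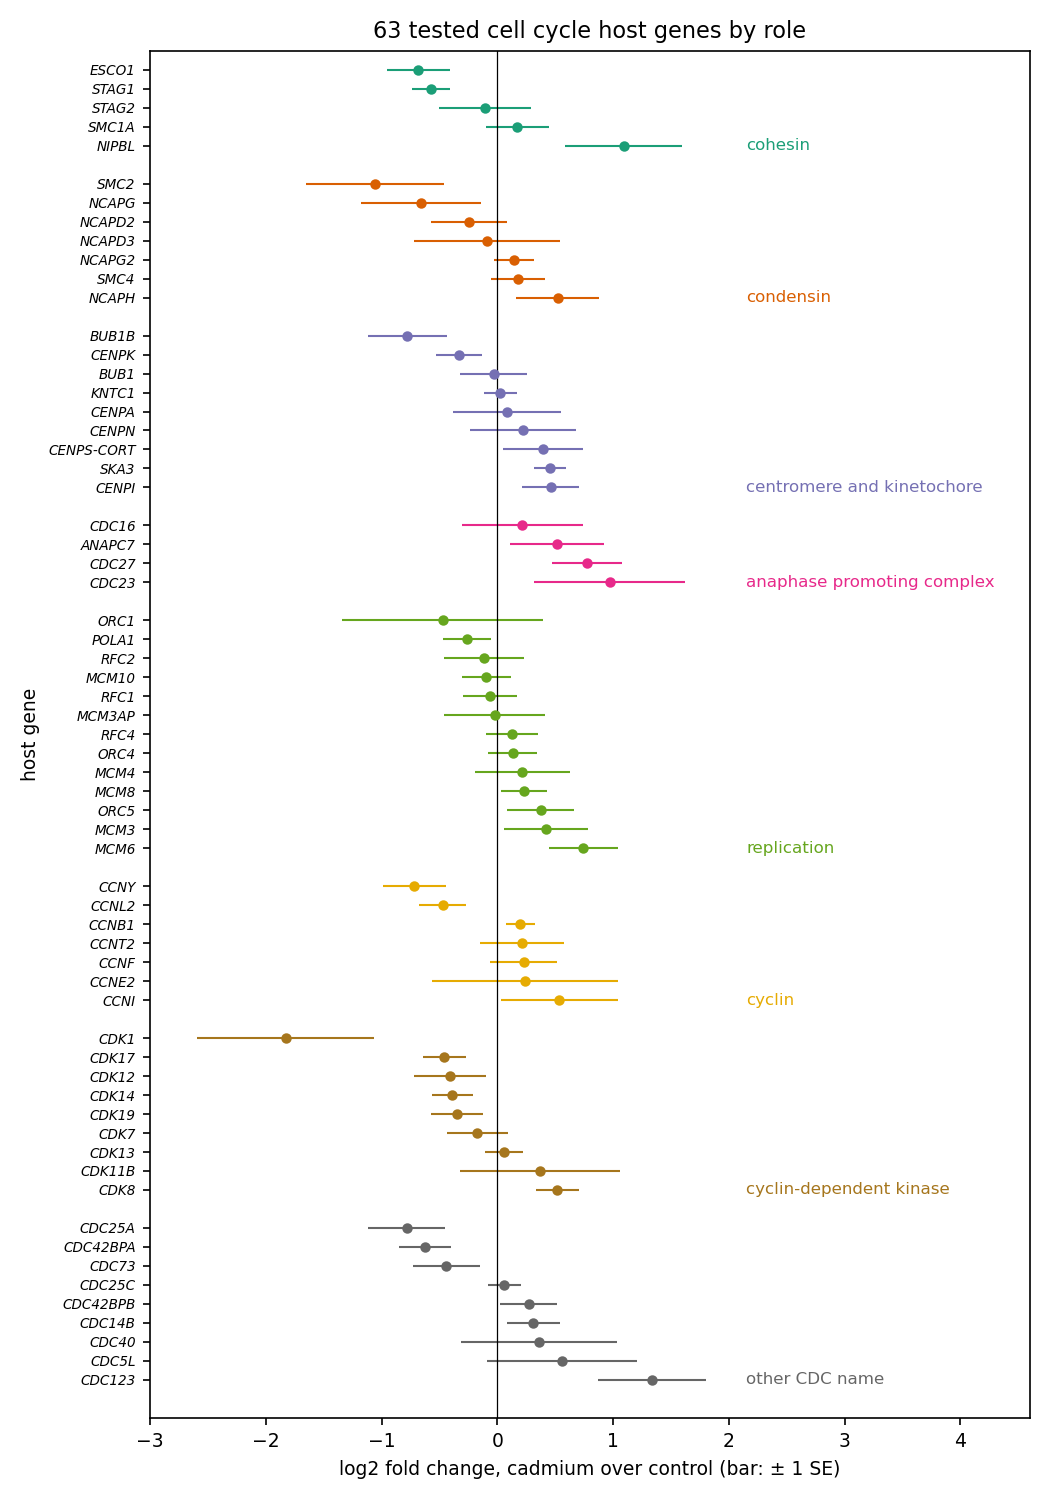
Log2 fold change, cadmium over control (horizontal axis), for the 63 tested member hosts by role, with bars of ± 1 SE. All 4 hosts of the anaphase promoting complex lie right of 0, 6 of 9 CDK hosts lie left of it, and ORC1, CCNE2 and CDK1 have the widest bars.

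Condensin hosts showed no member with groups that did not overlap, with 3 of 7 above 0 and 4 below. The most read, NCAPG2, had 143, 78 and 73 reads in the controls and 77, 92 and 93 with cadmium, a log2 fold change of 0.14 (SE 0.17). SMC2, a core arm of condensin, had 16, 17 and 5 reads against 7, 2 and 6, a log2 fold change of -1.06 (SE 0.60), and SMC4, the other arm, was at 0.18 (SE 0.23).

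Replication hosts, with MCM3AP counted among them by its name, were split as well, with 7 of 13 above 0 and a median log2 fold change of 0.13. MCM6, a helicase subunit, had 26, 14 and 25 reads in the controls and 29, 20 and 41 with cadmium, a log2 fold change of 0.74 (SE 0.30) and an edgeR adjusted p of 0.330. Its groups overlapped narrowly, since control replicate 3 (156.7 CPM) lay above cadmium replicate 2 (150.7 CPM). MCM8, a helicase of homologous recombination, had 116, 66 and 67 reads over 8 circles against 97, 64 and 75. All 5 of its tested circles lay above 0, with novel_circ_0020882 of exons 7 to 15 at 1.02 (SE 0.40) on 11, 6 and 7 reads against 10, 15 and 15. POLA1, the catalytic subunit of the polymerase that starts each new strand, was lower in every cadmium library, but by a log2 fold change of only -0.26 (SE 0.21). MCM10, ORC4, RFC1 and RFC4 were between -0.10 and 0.13, with SEs of 0.21 to 0.23.

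Of the 9 hosts with other CDC names, 6 were above 0. CDC25A, a phosphatase that switches on CDKs, had 35, 17 and 31 reads in the controls and 10, 16 and 13 with cadmium. Its groups did not overlap, with a log2 fold change of -0.79 (SE 0.33) and an edgeR adjusted p of 0.339. CDC25C, its relative at entry into mitosis, had 167, 111 and 148 reads against 113, 108 and 146 and was level at 0.06 (SE 0.14). CDC123, an assembly factor of translation initiation factor 2, had 7, 4 and 7 reads against 8, 14 and 16. The host's log2 fold change was 1.34 (SE 0.46), with an edgeR adjusted p of 0.245, on very few reads. CDC42BPA had 99, 66 and 95 reads against 59, 39 and 40, a log2 fold change of -0.62 (SE 0.22) and an edgeR adjusted p of 0.258. Within it, novel_circ_0017767 had 24, 18 and 27 reads against 8, 7 and 11, a log2 fold change of -1.13 (SE 0.36). CDC14B, a phosphatase, had 98, 74 and 52 reads against 84, 82 and 60, and its log2 fold change of 0.31 (SE 0.23) became -0.02 without control replicates 1 and 3.

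Among single circles, 133 of 194 members were tested in a fit over 6182 circles. None had an edgeR adjusted p under 0.05, where 0.0809% of all tested circles did, and DESeq2 and limma called 0 too. At an unadjusted p under 0.05, 9 members were lower (6.77%, against 3.88% of all circles) and 9 higher (6.77%, against 4.32%). DESeq2 had 2 lower and 1 higher, with no share over all circles to set beside these counts. Groups did not overlap for 14 members that were lower (10.5%, against 7.78%) and 11 that were higher (8.27%, against 7.52%), so the higher share is near the background. Without control replicates 1 and 3, 2 of 140 tested members were lower and 5 higher at an unadjusted p under 0.05, where 2.08% of all circles in that fit were lower and 5.45% higher.

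Circles of the same host did not always run together. Of 36 member hosts with more than 1 tested circle, 14 had all circles on 1 side of 0 (38.9%, against 37.7% of all such hosts). CDC25C is an example in which the 3 tested circles end at the same exon. The circle of exons 4 to 7, hsa_circ_0005537, had 119, 68 and 101 reads in the controls and 86, 74 and 96 with cadmium, a log2 fold change of 0.12 (SE 0.17). For the circle of exons 3 to 7, novel_circ_0030634, reads were 33, 26 and 26 against 22, 24 and 39. The log2 fold change of that circle was 0.26 (SE 0.27). By contrast, the circle of exons 5 to 7, novel_circ_0030632, had 13, 13 and 16 reads against 3, 7 and 7, with groups that did not overlap and a log2 fold change of -1.03 (SE 0.46). ORC5, a subunit of the origin recognition complex, had 2 circles above 0, hsa_circ_0003000 of exons 2 to 6 at 0.87 (SE 0.43) and hsa_circ_0081797 of exons 9 to 12 at 0.89 (SE 0.45). Another, hsa_circ_0007612 of exons 11 to 13, had 21, 10 and 12 reads against 6, 6 and 6 and was at -0.93 (SE 0.42). These differences between circles were chosen after their values were seen and were not tested.

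A few members had junction reads in 1 group only. The table lists a circle only where it is above 0 in all libraries of a group, and its smallest value above 0 is 2 reads. Of all circles, 212 were at 0 in the 3 cadmium libraries and 93 in the 3 control libraries. Of members, 5 were at 0 with cadmium, from KNTC1, POLE, NCAPD2, CENPF and ORC3, and 1 was at 0 in the controls, from CDC42BPB. The circle of POLE, the leading-strand polymerase, is the only one of its host listed (hsa_circ_0029531) and had 4, 7 and 5 reads in the controls. The CENPF circle, novel_circ_0017532, had 4, 5 and 5 reads in the controls. The CDC42BPB circle, hsa_circ_0033453 of exons 19 to 21, had 5, 6 and 2 reads with cadmium. Each is listed only through the group where it is above 0, and a 0 may stand for reads below the smallest listed value. At such counts a library can miss a circle by counting error alone. Of the 194 members, 133 were above 0 in all libraries, and each of the others is listed only through 1 group. Their reads are in the host sums, such as those of STAG1, ESCO1, NIPBL, SKA3, BUB1B, CCNY and CDK1. The differences of such hosts can therefore be in part built in.

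Among the other member hosts, those whose level was most like that of STAG1 over the 6 libraries (Pearson r of log2 CPM) were CDK1 (r = 0.89), BUB1B (0.86), CDK17 (0.85), ESCO1 (0.80) and CDC25A (0.77). Those most like SKA3 were NIPBL (0.86), CDC123 (0.85), ANAPC7 (0.82), CDK8 (0.81) and SMC1A (0.77). These are descriptions over 6 points that share library and group, and the hosts most like STAG1 are mostly those that were lower with cadmium too.

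Among 110 other genes of the cell cycle (checkpoint, repair at the fork, mitotic spindle and cytokinesis), 62 had a circle listed and 54 were tested. None had an edgeR adjusted p under 0.05, and at an unadjusted p under 0.05, 4 of the 54 were higher and 1 lower, where 5.88% and 6.58% of all hosts were. The replication ligase LIG1 had 11, 9 and 10 reads in the controls and 20, 18 and 23 with cadmium, a log2 fold change of 1.29 (SE 0.34) and an edgeR adjusted p of 0.186. DIAPH3, an actin regulator of cell division, was at 0.52 (SE 0.16), and LIN54, part of the complex that controls mitotic genes, at -1.33 (SE 0.60). LIN54 had only 18, 11 and 9 reads against 2, 8 and 2, and its groups overlapped.

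Marker lists for other cell types gave little to set beside these values. No circle came from any of 10 epithelial, 4 ciliated, 4 immune or 3 endothelial markers, so the epithelial label could not be checked on circles. Of 12 fibroblast and mesenchymal markers, 3 had circles, and their summed level was 564.1 to 664.6 CPM in the controls and 357.6 to 455.4 CPM with cadmium. The 3 were below 0 in log2 fold change and BNC2 was the lowest at -0.99 (SE 0.30). Of 3 proliferation markers, only TOP2A had circles. It had 1116, 1311 and 1160 CPM in the controls and 1309, 1447 and 1135 CPM with cadmium. Its groups overlapped, with a log2 fold change of 0.12 (SE 0.14). The part of these marker values in the member results was not tested.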

How the data were processed

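Junction reads were analysed in 6 libraries of BEAS-2B cells (3 with cadmium, 3 controls), grouped by the treatment in the labels. The authors' deposited counts are whole back-splice junction reads per circRNA. The deposited TPM are these counts as a share of the library total, used in 1 alternative. The deposited annotation gives position, host gene, spliced length and non-junction reads, with no statement of how non-junction reads were obtained. Bowtie2 2.2.8, DESeq 1.10.1 and Bowtie are named per the submitters' processing notes. For the circRNA caller, nothing is given in the sources used here. The same notes list hg19, yet positions follow GRCh38, and exon numbers come from GENCODE 29. Circles with several host genes or none were left out of host sums.

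Counts per circle and per host were tested with edgeR 4.0.16 in R 4.3.3 (TMM, robust quasi-likelihood, filterByExpr with minimum count 5 and minimum total 15, Benjamini-Hochberg adjustment over all features). SE is the size of the log2 value divided by the root of its F statistic. The filter keeps features that reach a CPM cutoff, set by the minimum count at the median library total, in as many libraries as a group holds. Alternatives were DESeq2 1.42.0, limma 3.58.1 on log2(TPM + 1), other size factors and filters, a replicate block and leaving out each library, and, chosen after seeing the data, leaving out control replicates 1 and 3, in which the lone control is taken to vary as the cadmium group does. The fits were tested on simulated data. Named hosts were the 12 highest by mean CPM, 6 higher and 6 lower with the smallest p, STAG1 and SKA3. Named circles were the 8 highest, 5 higher and 5 lower, and all of STAG1 and SKA3. Other names were chosen after their values were seen. Members and lists were chosen with earlier results of these data known. Reads carry no molecular identifiers and are not independent molecules.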

Additional observations from a re-analysis of the deposited data

How the results depend on the processing

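No member host or circle was called in any alternative except 1. Counts of called members over the fits that leave out a library ran from 0 to 1, for hosts (NIPBL without control replicate 2) and for circles (novel_circ_0031623 without the same library). With the replicate number as a block, 0 member hosts and 0 member circles were called. In that edgeR fit 9 member hosts were lower and 6 higher at an unadjusted p under 0.05, with no share over all hosts to set beside them. Deviations of same-numbered libraries correlated at r = 0.009, 0.004 and 0.084 over hosts. With so few libraries per group, these values cannot show whether the numbers pair the libraries. The difference in the members' share of reads was 0.0417 points without CCNB1. The difference in circles above 0 was 0.333 over circles that pass the filter. The filter removes circles of few reads, which are those most often at 0, so this value tests nothing. Without control replicates 1 and 3, log2 fold changes turned sign for CDK13 (-0.21), KNTC1 (-0.10), CDC14B (-0.018), NIPBL (-0.076), hsa_circ_0079929 (-0.055), hsa_circ_0087641 (-0.024), hsa_circ_0001699 (-0.37) and novel_circ_0026136 (1.26), and with limma for novel_circ_0006271 (0.065). Leaving out those 2 controls also moved, with no change of sign, hsa_circ_0001495 to 0.38, hsa_circ_0003626 to -0.18, hsa_circ_0005537 to 0.26, hsa_circ_0007547 to 0.74, hsa_circ_0008750 to -0.81, hsa_circ_0029803 to 0.26, hsa_circ_0067479 to 0.57, hsa_circ_0067480 to -0.72, hsa_circ_0083182 to -0.20, novel_circ_0006266 to 0.76 and novel_circ_0006271 to -0.91. Leaving out 1 library at a time, these values ran across 0, from -0.056 to 0.18 for CDK13, -0.070 to 0.075 for KNTC1, -0.016 to 0.13 for CDC25C, -0.012 to 0.34 for MCM8, -0.30 to 0.021 for hsa_circ_0083182, -0.20 to 0.25 for hsa_circ_0001699, -0.62 to 0.18 for hsa_circ_0003626, -0.53 to 0.38 for hsa_circ_0008750, -0.33 to 0.27 for hsa_circ_0067479, -0.58 to 0.31 for novel_circ_0006271 and -0.92 to 0.70 for novel_circ_0026136. None of these had passed the test, and the cause was not tested. STAG1 and ESCO1 stayed below 0 and SKA3 above 0 in every alternative. Circles of few reads limit what could be detected.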
